A study of Mus musculus with 16 samples.

Results

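The RNA of 10 genes that mark the blood vessels of the brain was followed in the hippocampus of mice after learned helplessness training. The genes were chosen by name as markers, 8 of endothelial cells (Flt1, Kdr, Tek, Pecam1, Ly6c1, Slc2a1, Slco1a4 and Abcb1a) and 2 of pericytes (Pdgfrb and Vtn), and every transcript listed under one of these names was taken. All 10 were present, with 37 of the 80137 transcripts of the table, and each was summed to 1 value per mouse among 18287 gene names. Every member was above 0 in all 16 mice, and 9 of the 10 had a mean level of at least 1 FPKM, which is the number of fragments per kilobase of transcript for a library scaled to a fixed number of mapped fragments.

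All mice were wild type C57BL/6 males of 3 months. Each of the 4 groups had 4 mice, and 1 library was made from the pooled left and right hippocampus of each. Homecage (HC) mice stayed in their cages without any shock. Control (Ctrl) mice had no inescapable shocks and were given a test of 30 trials with an escapable shock of 0.4 mA. Learned helpless (LH) mice and those that did not become helpless (NLH) had received 180 inescapable foot shocks of 0.4 mA before the same 30 trials. The labels divide NLH from LH by failures and latency of escape in that test and not by a treatment, so that LH vs. NLH compares mice with the same shocks and different behavior. Ctrl mice had also been handled and placed in the shuttle box, so Ctrl vs. HC compares mice with and without handling, the box and the escape test together, while NLH vs. Ctrl and LH vs. Ctrl compare mice with and without the earlier inescapable shocks. Both of these use the same 4 Ctrl mice.

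Endothelial cells of brain capillaries are sealed by tight junctions and form the blood-brain barrier. Nutrients such as glucose enter through carriers in their membrane, and efflux pumps return many drugs and lipophilic compounds to the blood. Vascular endothelial growth factor (VEGF) and the angiopoietins act on receptor tyrosine kinases of these cells, and pericytes, which are recruited by platelet-derived growth factor, cover the capillary from outside.

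2 libraries stood apart from the rest and both were of LH mice. LH 3 had 10846 and LH 4 had 15504 transcripts at 0, against 4872 to 7352 in the other 14 mice. The estimated depth was 30970000 to 33910000 fragments in HC, 28570000 to 38020000 in Ctrl, 26930000 to 37490000 in NLH and 28030000, 23840000, 24710000 and 20130000 in the LH mice. All 4 LH libraries thus lay below every Ctrl and HC library, also without LH 3 and LH 4, and group and depth cannot be told apart in LH vs. Ctrl. In named transcripts the estimated number of fragments per mouse ranged from 34 to 236 for Pdgfrb and from 49 to 193 for Pecam1. It ranged from 386 to 1439 for Slc2a1, which was the member with the most fragments. Unnamed transcripts at the same loci, described below, are not counted in these numbers. Because LH 3 and LH 4 stood apart, the difference of each member in LH vs. Ctrl is also given without them.

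The promoters of Flt1, Kdr and Slco1a4 are shown because the results below turn on them: Flt1 and Kdr are both receptors for VEGF and were among the pairs most alike over the mice, and Slco1a4 is a transporter with another pattern over the groups. The RefSeq window of Abcb1a, the other member the results turn on, lies upstream of the start of its measured transcripts and is not shown. Each run is the 250 bases before the RefSeq start (GRCm38.p6), 5′ to 3′ on the strand of the gene, and capitals mark the GC box GGGCGG read on either strand. The windows are chr5:147726012-147726261 (minus strand) for Flt1, chr5:75978456-75978705 (minus strand) for Kdr and chr6:141856221-141856470 (minus strand) for Slco1a4.
Flt1: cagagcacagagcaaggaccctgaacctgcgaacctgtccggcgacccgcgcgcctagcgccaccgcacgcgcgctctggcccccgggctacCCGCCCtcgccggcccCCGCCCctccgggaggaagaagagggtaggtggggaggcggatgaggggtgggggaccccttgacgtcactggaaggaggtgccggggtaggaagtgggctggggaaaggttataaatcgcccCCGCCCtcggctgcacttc
Kdr: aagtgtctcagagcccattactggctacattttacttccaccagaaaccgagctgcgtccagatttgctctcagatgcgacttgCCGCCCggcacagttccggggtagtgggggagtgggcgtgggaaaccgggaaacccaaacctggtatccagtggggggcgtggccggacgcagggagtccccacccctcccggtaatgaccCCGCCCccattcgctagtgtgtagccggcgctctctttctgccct
Slco1a4: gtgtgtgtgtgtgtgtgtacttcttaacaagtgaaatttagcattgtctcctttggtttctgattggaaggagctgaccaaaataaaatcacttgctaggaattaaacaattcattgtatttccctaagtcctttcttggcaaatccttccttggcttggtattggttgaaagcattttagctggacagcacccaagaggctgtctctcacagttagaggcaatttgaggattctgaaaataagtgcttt
The Flt1 window held 3 GC boxes, the Kdr window 2 and the Slco1a4 window none. Of the other members with a window, the transporter Slc2a1 also held 2 GC boxes, with 66.4% G and C, and the rest held none. A GC box was found in 32.7% of all 32851 windows of this length. The share of G and C was 70.4% for Flt1, 61.6% for Kdr and 39.2% for Slco1a4, against a median of 52.4% over all windows. The number of CpG dinucleotides was 23, 16 and 0 in this order, against a median of 6.

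Windows were found for 8 of the 10 members. Beside the GC box, 4 other motifs were searched on both strands, and none of the motifs contains another. The cyclic AMP response element TGACGTCA was present in 1.55% of all windows and, among the members, only in that of Flt1. The letters CCGGAA, a form of the site bound by the ETS family of transcription factors, were present in 12.0% of all windows. Among the members they were found only in that of Kdr. The letters ACGTG, a form of the hypoxia response core, were present in 16.6% of all windows and among the members only in that of Slc2a1. Other forms of the ETS site and of the hypoxia response core were not searched. The TATA box TATAAA was present in 12.4% of all windows and in those of Flt1, Vtn and Ly6c1. These matches describe the letters of the windows only.

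Across the 16 mice the mean level was, in descending order, that of Ly6c1 (11.2 FPKM), Slco1a4 (8.90), Slc2a1 (8.21), Vtn (6.04), Flt1 (3.27), Pecam1 (1.66), Abcb1a (1.52), Kdr (1.08), Tek (1.00) and Pdgfrb (0.897). FPKM is scaled by transcript length, but the order depends on which transcripts are summed. With the unnamed transcripts of each locus added, described below, the mean was 2.41 for Abcb1a and 1.73 for Pdgfrb. Pecam1, Kdr and Tek had no unnamed transcripts, so that Pdgfrb was then above these genes. Several neighbours in the order of the named sums were not separated by the spread of the mice. Slco1a4 was above Slc2a1 in 10 of 16 mice, Pecam1 above Abcb1a in 8, Kdr above Tek in 9 and Tek above Pdgfrb in 9. Vtn, in contrast, was above Flt1 in 15 mice and Flt1 above Pecam1 in 15.

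**Figure D1:**
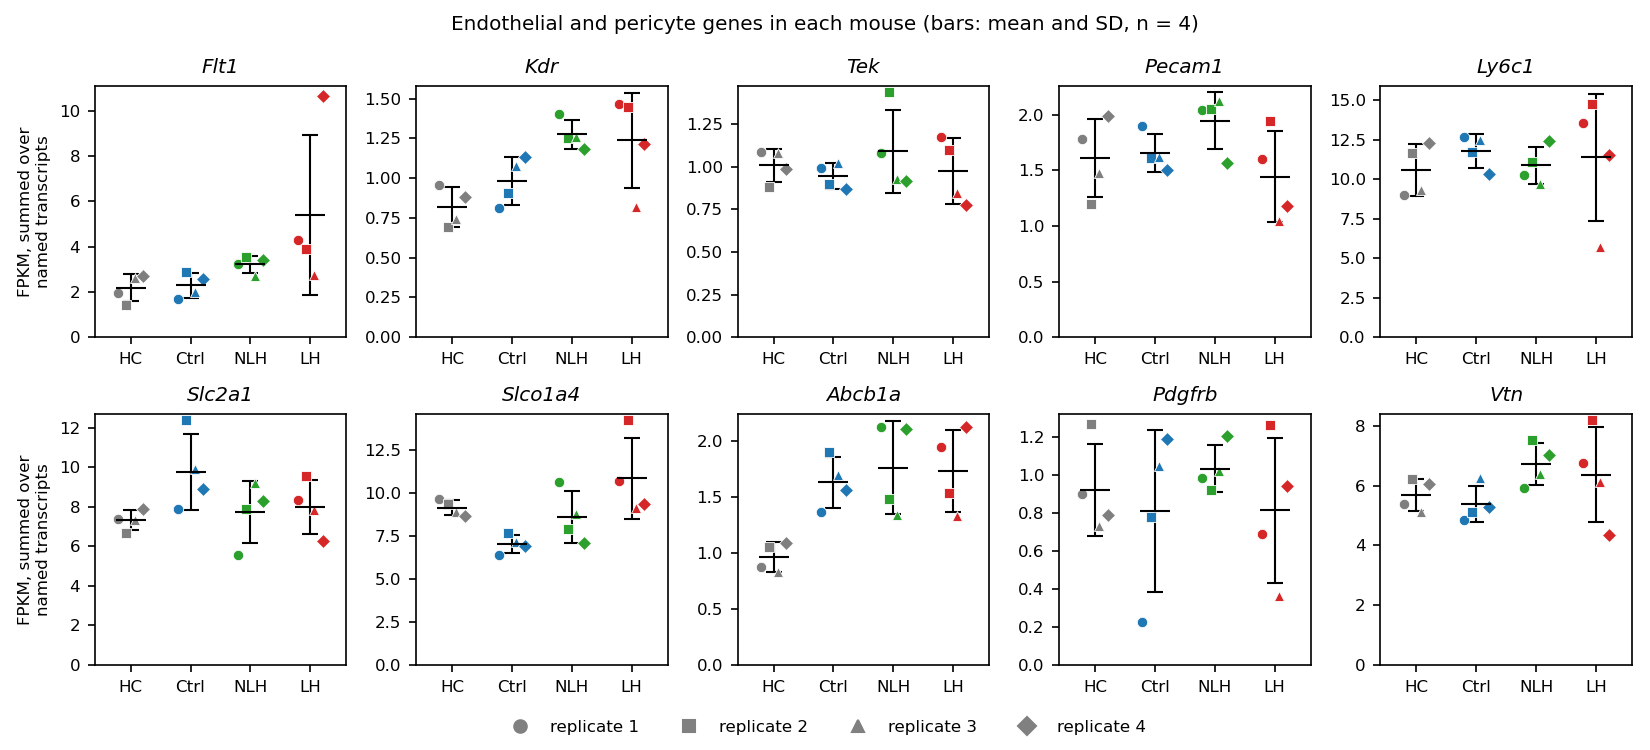
Level of each member in each mouse, in FPKM summed over its named transcripts (vertical axis, from 0), for the HC, Ctrl, NLH and LH groups (horizontal axis). Each symbol is 1 mouse and bars give the mean and SD of 4 mice. The 4 HC mice lie below all others for Abcb1a, the 4 Ctrl mice lie lowest for Slco1a4 apart from an overlap with NLH, and LH 4 stands at 10.6 for Flt1.

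Of the receptors, Flt1 encodes a VEGF receptor that also exists as a soluble form, which binds VEGF without signaling. Flt1 lies on chr5:147561604-147726011 (GRCm38, minus strand). Its level was 1.96, 1.43, 2.61 and 2.72 FPKM in HC, 1.70, 2.88, 1.99 and 2.56 in Ctrl, 3.25, 3.55, 2.68 and 3.41 in NLH, with 4.31, 3.88, 2.76 and 10.6 in LH. The NLH and LH mice were mostly above the HC and Ctrl mice, with an overlap through HC 4, Ctrl 2, NLH 3 and LH 3. The mean was 2.28 ± 0.533 (SD, n = 4) in Ctrl and 5.39 ± 3.55 in LH. On the log2(FPKM + 0.1) scale the LH vs. Ctrl difference was 1.04 ± 0.32 (SE), and did not pass the limma test after Benjamini-Hochberg adjustment over all genes (adjusted p = 0.209). NLH vs. Ctrl gave 0.50 ± 0.32 and Ctrl vs. HC 0.08 ± 0.32.

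The value of LH 4 came from short transcripts. Flt1-205, a noncoding transcript of 274 bases and 2 exons, was at 6.43 FPKM in LH 4 and listed at 0 in the other 15 mice, and Flt1-204, of 395 bases, was at 1.30 in LH 4 and listed at 0 elsewhere. The sequence of Flt1-205 (GENCODE vM21) is shown because it carried most of this value. Lower case marks the first exon (chr5:147615129-147615242, 114 bases), which lies inside exon 15 of the full-length transcript Flt1-202, and capitals mark the second exon (chr5:147614756-147614915, 160 bases), which overlaps no exon of Flt1-202.
Flt1-205: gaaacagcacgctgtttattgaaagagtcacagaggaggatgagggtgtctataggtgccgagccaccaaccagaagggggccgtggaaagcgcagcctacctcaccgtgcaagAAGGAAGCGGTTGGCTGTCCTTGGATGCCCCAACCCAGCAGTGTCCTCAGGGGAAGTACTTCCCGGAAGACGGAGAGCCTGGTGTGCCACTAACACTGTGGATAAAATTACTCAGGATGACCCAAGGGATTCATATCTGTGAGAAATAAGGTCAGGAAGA
With only the coding transcripts Flt1-202 and Flt1-203, Flt1 was at 4.20, 3.88, 2.76 and 2.90 FPKM in LH and at 1.70, 2.88, 1.99 and 2.50 in Ctrl. The mean was 3.43 ± 0.716 in LH, 3.18 ± 0.341 in NLH and 2.27 ± 0.523 in Ctrl. An exact two-sided permutation test gave p = 0.0571 for LH vs. Ctrl and for NLH vs. Ctrl, where 4 mice against 4 cannot give less than 0.0286. Without LH 4 the log2 difference of the summed Flt1 in LH vs. Ctrl was 0.66 (limma adjusted p = 0.152) in place of 1.04.

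The full-length Flt1-202 (1333 codons, 30 exons) held 48.0% of the FPKM of Flt1 and Flt1-203 (688 codons, 13 exons), the soluble form, held 36.6%. Flt1-203 made up 46.6% ± 10.2 (SD, n = 4) of the sum of both in the HC mice, 53.5% ± 13.3 in the Ctrl mice, 43.5% ± 6.89 in the NLH mice and 36.2% ± 8.58 in the LH mice. In LH the share was 42.2, 39.6, 23.5 and 39.6%, and in Ctrl 64.7, 36.0, 63.0 and 50.3%, so that the groups overlapped through Ctrl 2. Flt1-202 alone differed by 1.01 ± 0.33 on the log2 scale in LH vs. Ctrl (limma adjusted p = 0.304 over all transcripts). It is the most abundant Flt1 transcript and its groups overlapped, with 1.75 to 2.43 FPKM in LH and 0.602 to 1.84 in Ctrl.

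Kdr encodes the main signaling receptor for VEGF on endothelial cells and lies on chr5:75932827-75978458 (minus strand). It was at 0.960, 0.693, 0.741 and 0.882 FPKM in HC, 0.810, 0.905, 1.08 and 1.13 in Ctrl, 1.40, 1.26, 1.26 and 1.18 in NLH, with 1.47, 1.45, 0.822 and 1.22 in LH. All 4 NLH mice were above all 4 Ctrl mice, and of the LH mice LH 3 fell into the Ctrl range. The log2 difference was 0.36 ± 0.19 in NLH vs. Ctrl (limma adjusted p = 0.92) and 0.29 ± 0.19 in LH vs. Ctrl. Without LH 3 and LH 4 the latter was 0.54 ± 0.17 (limma adjusted p = 0.0829), and Kdr passed the adjusted F test over the groups (adjusted p = 0.0411), which it did not with all mice (adjusted p = 0.418). Kdr-201 (1345 codons) held 84.9% of the level.

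Tek encodes the receptor for the angiopoietins and lies on chr4:94739289-94874976 (plus strand). It varied little, from 0.776 FPKM in LH 4 to 1.44 in NLH 2, and all groups overlapped. The largest log2 difference of Tek was 0.17 ± 0.18, in NLH vs. Ctrl. Of its coding transcripts, Tek-203 held 66.3% of the level.

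Pecam1, an adhesion molecule of endothelial junctions, lies on chr11:106654217-106750628 (minus strand). It was at 2.04, 2.05, 2.12 and 1.57 FPKM in NLH and at 1.60, 1.94, 1.05 and 1.18 in LH, and at no more than 1.99 in HC and Ctrl. The lowest values were those of LH 3 and LH 4, the libraries that stood apart. The log2 difference in LH vs. NLH was -0.43 ± 0.20 (limma adjusted p = 0.653), and it was -0.12 without LH 3 and LH 4. Pecam1-202 and Pecam1-203, which encode 716 and 697 codons, held 32.5% and 35.4% of the level.

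Ly6c1, a surface protein of the Ly6 family that is abundant on brain endothelium, lies on chr15:75044018-75048830 (minus strand). It was the highest member, at 9.02 to 12.3 FPKM in HC, 10.3 to 12.6 in Ctrl, 9.71 to 12.4 in NLH, with 13.6, 14.8, 5.73 and 11.5 in LH. LH held both the highest mice, LH 1 and LH 2, and the lowest, LH 3, and the group differences were between -0.13 and 0.16 on the log2 scale. Ly6c1-201 held 57.5% and Ly6c1-205 21.0% of the level. Ly6c2, a close paralog found on leukocytes, was at a mean of 0.0715 FPKM, and how fragments that match both genes were divided is not given in the sources used here.

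Among the transporters, Slc2a1 encodes the glucose carrier of the barrier and lies on chr4:119108711-119137983 (plus strand). It was at 7.37, 6.68, 7.32 and 7.91 FPKM in HC, 7.90, 12.4, 9.89 and 8.92 in Ctrl, 5.55, 7.89, 9.22 and 8.28 in NLH, with 8.34, 9.57, 7.82 and 6.27 in LH. Ctrl 2 was the highest mouse, and Ctrl 1 was just below HC 4, which made the only overlap of these groups. The log2 difference was 0.39 ± 0.17 in Ctrl vs. HC (limma adjusted p = 1), -0.34 ± 0.17 in NLH vs. Ctrl (adjusted p = 0.915) and -0.28 ± 0.17 in LH vs. Ctrl. All of these differences of Slc2a1 use the same 4 Ctrl mice. Slc2a1-201 (492 codons) held 99.7% of the level.

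Slco1a4, an organic anion transporter of the barrier, lies on chr6:141805440-141856199 (minus strand). It was at 9.63, 9.34, 8.86 and 8.66 FPKM in HC, 6.39, 7.68, 7.14 and 6.92 in Ctrl, 10.6, 7.91, 8.78 and 7.09 in NLH, with 10.7, 14.2, 9.11 and 9.36 in LH. All Ctrl mice were below all HC mice and below all LH mice, and both separations use the same 4 Ctrl mice. HC overlapped with LH, and NLH overlapped with each of the other groups. The mean of Ctrl was 0.771 times that of HC, with a log2 difference of -0.37 ± 0.14 (limma adjusted p = 1). In LH vs. Ctrl the log2 difference was 0.60 ± 0.14 (95% confidence interval 0.29 to 0.90), which did not pass the adjustment (limma adjusted p = 0.139), and in LH vs. NLH it was 0.32 ± 0.14 (adjusted p = 0.638).

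The LH vs. Ctrl call of Slco1a4 depended on LH 3 and LH 4. Without these 2 mice the LH vs. Ctrl difference was 0.80 (limma adjusted p = 0.0202), where the median of all genes was at 0.19 and 5.41% of all genes passed. Without LH 4 alone it was 0.66 with a limma adjusted p of 0.0491, and 1.04% of all genes passed. With limma's sample weights, which were 0.282 for LH 3 and 0.106 for LH 4, it was 0.66 with an adjusted p of 0.0117, a median of all genes of 0.12 and 5.29% of all genes passing. Over the single Ctrl and LH mice left out the limma adjusted p ran from 0.0491 to 0.343.

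Most of the Slco1a4 level was Slco1a4-202, a transcript of 622 bases, 6 exons and 139 codons, which held 63.5% of it. The transcripts Slco1a4-203 and Slco1a4-201, both of 670 codons, held 24.0% and 12.5%. Slco1a4-202 was at 3.76, 4.86, 4.04 and 4.14 FPKM in Ctrl and at 6.42, 10.1, 7.65 and 5.77 in LH, without overlap. Its log2 difference of 0.79 ± 0.17 had the smallest adjusted p of any member transcript, 0.131. Slco1a4-203 differed by 0.48 ± 0.24 (limma adjusted p = 0.495). Slco1a4-201 went the other way, with -0.84 ± 0.61 (limma adjusted p = 0.619). It was at 2e-23 FPKM in LH 3 and at 0.987 to 0.995 in the other LH mice. When each transcript was weighted by its length, which lowers the part of the short Slco1a4-202, the LH vs. Ctrl difference of Slco1a4 was 0.42 with an adjusted p of 0.353.

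Abcb1a, the drug efflux pump P-glycoprotein, lies on chr5:8660077-8748575 (plus strand). It was at 0.871, 1.06, 0.831 and 1.09 FPKM in HC, 1.36, 1.90, 1.70 and 1.56 in Ctrl, 2.13, 1.48, 1.33 and 2.11 in NLH, with 1.94, 1.53, 1.33 and 2.12 in LH. Every HC mouse was below every mouse of the other 3 groups, and the latter overlapped with each other. The mean of Ctrl was 1.69 times that of HC, and the log2 difference was 0.70 ± 0.20 (95% confidence interval 0.29 to 1.12), with a limma adjusted p of 1. NLH vs. Ctrl and LH vs. Ctrl differed by 0.09 ± 0.20 and 0.07 ± 0.20. Abcb1a-201 (1276 codons) held 98.1% of the level. The paralog Abcb1b had a mean of 0.682 FPKM and a log2 difference of -0.16 ± 0.39 in Ctrl vs. HC, and the division of shared fragments is again not known here.

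Pdgfrb, the receptor through which pericytes are recruited, lies on chr18:61045150-61085061 (plus strand). It was at 0.902, 1.27, 0.731 and 0.793 FPKM in HC, 0.225, 0.782, 1.05 and 1.19 in Ctrl, 0.986, 0.925, 1.02 and 1.21 in NLH, with 0.691, 1.27, 0.365 and 0.943 in LH. The lowest mouse, Ctrl 1, was 5.64-fold below the highest, and all groups overlapped. The standard errors of Pdgfrb, 0.39 on the log2 scale, were the widest of the members. Its largest difference was 0.48, in NLH vs. Ctrl, and included the low value of Ctrl 1. With the unnamed transcript of the locus added, described below, the NLH mean was 1.11 times that of Ctrl, in place of 1.27 times.

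Vtn, an adhesive glycoprotein that pericytes make in the brain, lies on chr11:78499091-78502324 (plus strand). It was at 4.86, 5.12, 6.26 and 5.29 FPKM in Ctrl, 5.92, 7.52, 6.39 and 7.02 in NLH, with 6.75, 8.21, 6.14 and 4.36 in LH, and at 5.12 to 6.22 in HC. LH again held both the highest mouse, LH 2, and the lowest, LH 4. The log2 difference was 0.31 ± 0.16 in NLH vs. Ctrl (limma adjusted p = 0.917), and Vtn-201 held 91.5% of the level.

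The deposited table also holds 10 assembled transcripts without a gene name at the loci of 6 members, and these bear on the values of Pdgfrb, Abcb1a, Slco1a4 and Flt1. At Pdgfrb the unnamed transcript held 48.0% of the locus, at Abcb1a 36.9%, at Slco1a4 17.2% and at Flt1 11.1%. For Pdgfrb it was high where the named transcript was low, at 1.26 FPKM in Ctrl 1 and 1.05 in LH 3, with r = -0.77 between both over the 16 mice. With the unnamed transcript added, Pdgfrb ranged from 1.42 to 2.11 FPKM and its coefficient of variation was 11.2% in place of 33.3%. For Abcb1a the same sum was 2.15, 1.67, 1.88 and 1.93 in HC and 2.21, 2.46, 2.56 and 2.46 in Ctrl, 2.55 to 3.13 in NLH and 3.41, 2.78, 1.84 and 2.27 in LH. LH 3 then lay within the HC range, so that HC and LH overlapped, and the log2 difference in Ctrl vs. HC was 0.33 in place of 0.70. For Flt1 it was 2.50 to 2.72 in HC, 2.69 to 3.54 in Ctrl and 3.41 to 3.95 in NLH, and LH ran from 2.76 in LH 3, within the Ctrl range, to 10.6 in LH 4. The log2 difference of Flt1 in LH vs. Ctrl was then 0.61 in place of 1.04.

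**Figure D2:**
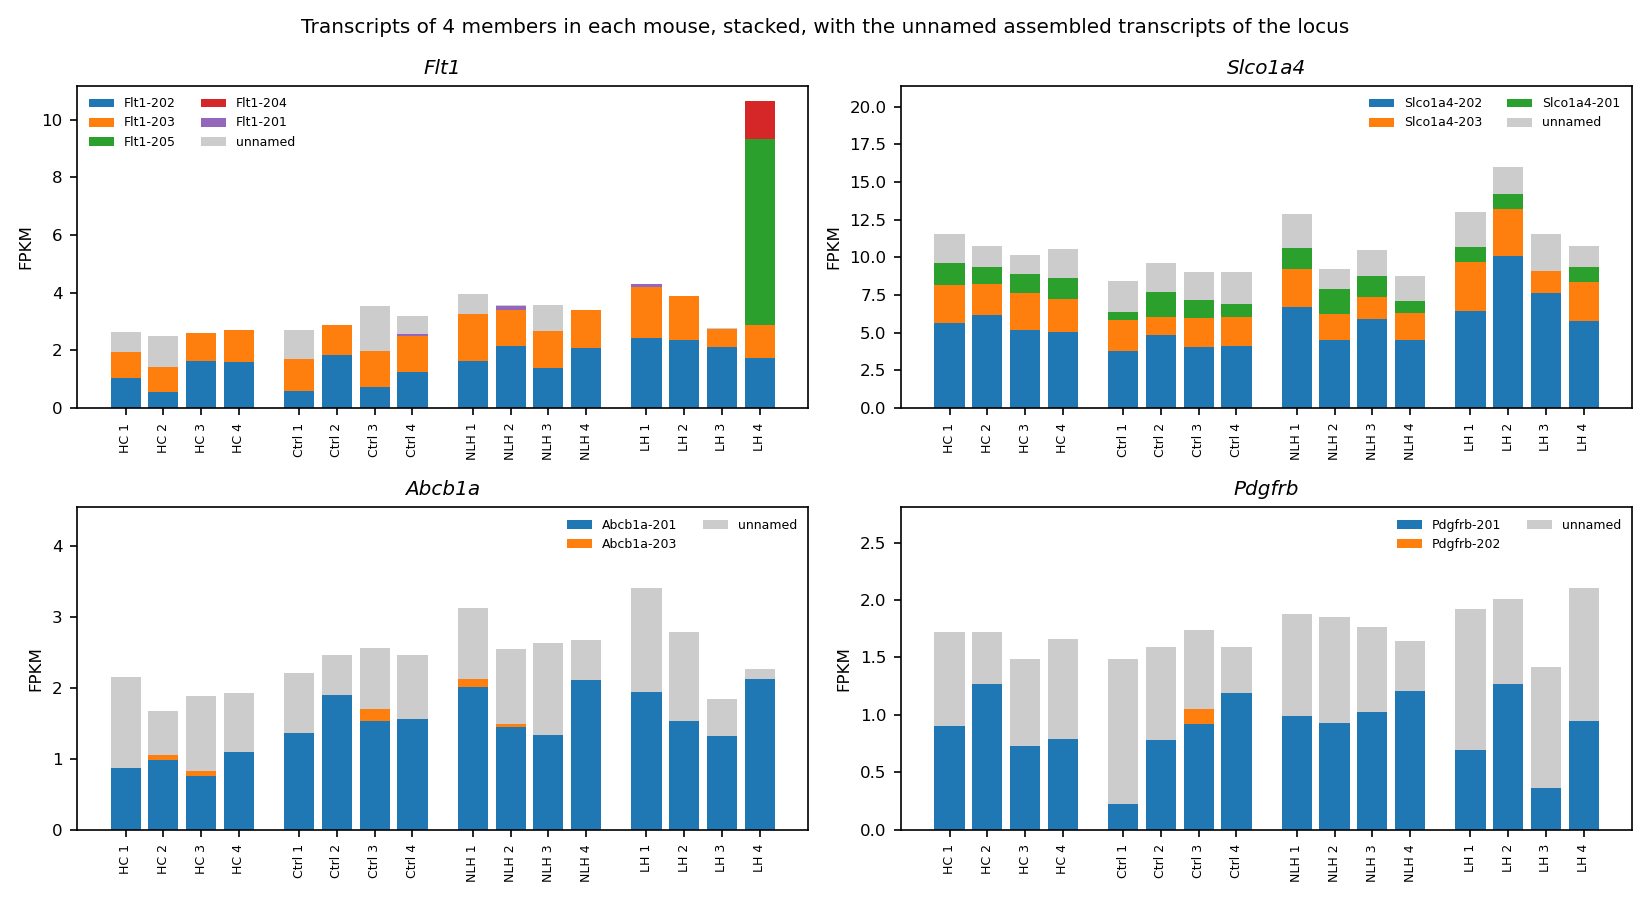
Stacked level in FPKM (vertical axis) of the named transcripts and, in grey, of the unnamed assembled transcripts at the loci of Flt1, Slco1a4, Abcb1a and Pdgfrb, with 1 bar for each of the 16 mice. Flt1-205 and Flt1-204 appear in LH 4 and no other mouse, and the bars of Pdgfrb differ less in total height, from 1.42 to 2.11, than in their named part.

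No member passed the adjusted threshold of 0.05 in any of the 4 comparisons by limma. In Ctrl vs. HC, where no gene of the 18287 passed (0%), Abcb1a and Slc2a1 were higher in Ctrl and Slco1a4 lower at an unadjusted p under 0.05, against 1.61% of all genes higher and 1.08% lower. With the unnamed transcripts of each locus added only Slc2a1 was, with transcripts weighted by length Abcb1a and Slc2a1 were, and the number was 2 or 3 with single mice left out. Abcb1a and Slco1a4 were the members whose groups did not overlap, against 5.24% of all genes. In NLH vs. Ctrl, 0.00547% of all genes passed the adjusted threshold. No member reached an unadjusted p under 0.05, against 4.43% of all genes higher and 1.16% lower in NLH, and the groups of Kdr did not overlap, against 6.04% of all genes. This count depended on the fit. With size factors it was 2 (Slc2a1 lower, with a log2 difference of -0.41, and Vtn higher), beside 1278 of all 18287 genes. In a fit of NLH and Ctrl alone it was 3 (Flt1, Kdr and Vtn, higher), beside 1842 of 18030 genes. With sample weights it was 5 (Slc2a1 lower and Flt1, Kdr, Slco1a4 and Vtn higher), beside 2547 of 18287 genes. The main fit had 1023 such genes. No adjusted p of a member passed in these fits. By the test that the study's methods describe, on untransformed FPKM at an unadjusted p under 0.05, 3 members were called in Ctrl vs. HC (Abcb1a, Slc2a1 and Slco1a4), 3 in NLH vs. Ctrl (Flt1, Kdr and Vtn), 1 in LH vs. Ctrl (Slco1a4) and none in LH vs. NLH. The share of all genes called by this test was 8.5%, 9.57%, 8.01% and 3.5% in the same order, without those of no variance.

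In LH vs. Ctrl, where no gene passed the adjusted threshold (0%), Flt1 and Slco1a4 were higher at an unadjusted p under 0.05 and no member was lower, against 7.03% of all genes higher and 4.49% lower. With size factors Slc2a1 was also lower (log2 difference -0.32), beside 2896 of 18287 genes at an unadjusted p under 0.05. With sample weights Kdr and Vtn were also higher, beside 3756 such genes. The main fit had 2107 such genes. The groups of Slco1a4 did not overlap, against 5.59% of all genes. In LH vs. NLH, 0.0109% of all genes passed the adjusted threshold. Slco1a4 was higher and Pecam1 lower at an unadjusted p under 0.05, against 2.75% of all genes higher and 4.79% lower. Neither was without NLH 2, without NLH 3 or in a fit of LH and NLH alone, 1 or 2 members were with other single mice left out, and with the replicate number as a block only Slco1a4 was. The groups of no member were free of overlap in LH vs. NLH, against 2.11% of all genes. Across the 4 groups the F test of limma called no member after adjustment, against 0.0766% of all genes, and Abcb1a, Flt1, Kdr and Slco1a4 reached an unadjusted p under 0.05, against 9.96% of all genes. With LH 3 and LH 4 left out, Abcb1a, Kdr and Slco1a4 passed the adjusted F test, against 4.36% of all genes, and with sample weights Abcb1a and Slco1a4 did, against 5.58%.

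Without LH 3 and LH 4 the log2 difference in LH vs. Ctrl was 0.84 for Flt1 (limma adjusted p = 0.0576), 0.47 for Vtn (adjusted p = 0.0574), 0.36 for Pdgfrb, 0.27 for Ly6c1, 0.24 for Tek, 0.09 for Pecam1, 0.09 for Abcb1a and -0.11 for Slc2a1. In LH vs. NLH it was 0.53 for Slco1a4 (adjusted p = 0.176) and 0.38 for Ly6c1 (adjusted p = 0.235), and no member passed.

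**Figure D3:**
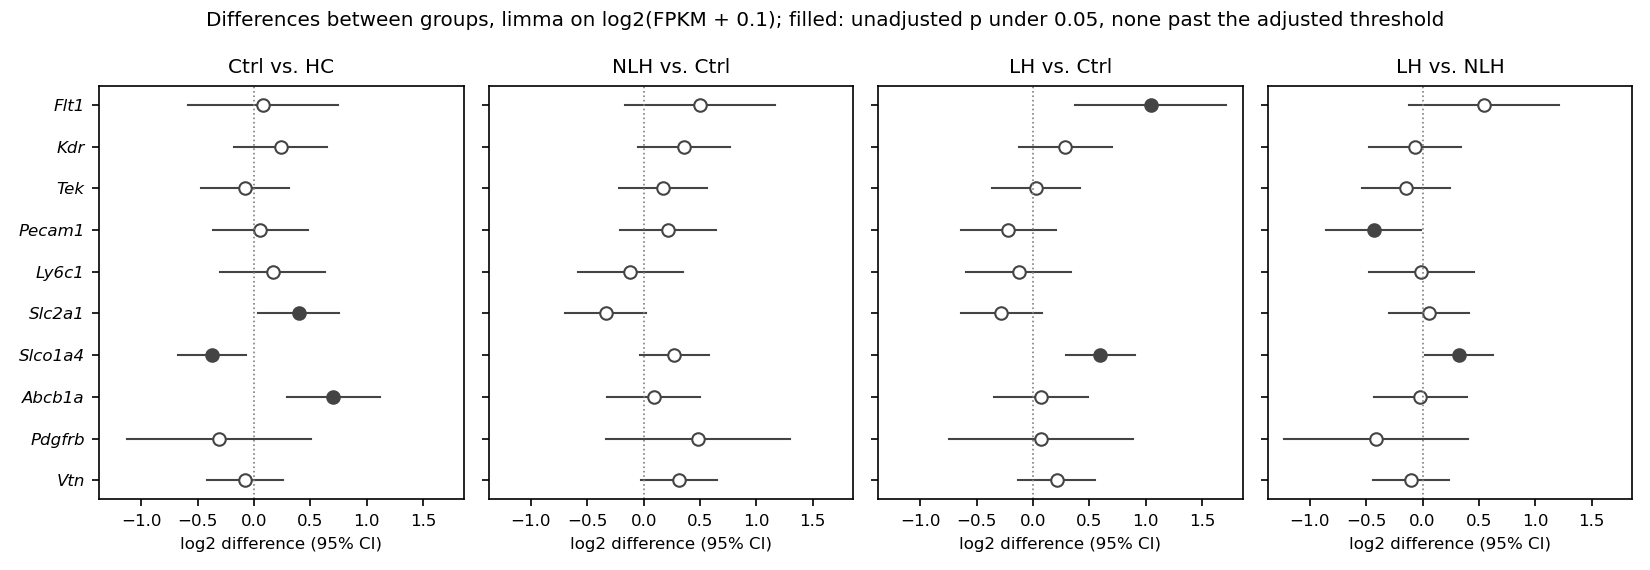
Log2 difference of each member (horizontal axis, limma on log2(FPKM + 0.1), with lines for the 95% confidence interval) in the 4 comparisons. Filled points have an unadjusted p under 0.05, among them Abcb1a at 0.70 in Ctrl vs. HC and Slco1a4 at 0.60 in LH vs. Ctrl, and no point passed the adjusted threshold.

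Of the 37 member transcripts, none passed the adjusted threshold over all transcripts by limma. In Ctrl vs. HC 4 transcripts reached an unadjusted p under 0.05, against 3.45% of all transcripts, and 0.00374% of all passed the adjustment. In NLH vs. Ctrl 2 did, Vtn-201 and Flt1-202, against 5.12%, with 0.0125% of all past the adjustment. In LH vs. Ctrl Slco1a4-202 and Flt1-202 did, against 10.7%, with 0.0462% past the adjustment. In LH vs. NLH 2 transcripts did, against 8.72%, with 0.0412% past the adjustment. The test of the methods on FPKM called 5, 3, 2 and 1 member transcripts in the same order, against 6.68%, 7.2%, 7.69% and 4.47% of all transcripts.

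The median log2 difference of the 10 members was 0.07 in Ctrl vs. HC, 0.24 in NLH vs. Ctrl and 0.07 in LH vs. Ctrl, and it was -0.04 for LH vs. NLH, beside 0.02 in Ctrl vs. HC, 0.06 in NLH vs. Ctrl and -0.06 in LH vs. NLH over all genes, whose median in LH vs. Ctrl was 0. In Ctrl vs. HC the median of the members was -0.05 without HC 2, 0.18 without HC 4, 0.13 without Ctrl 1 and 0.01 without Ctrl 2, so that its direction rested on single mice. With single mice left out the median ran from 0.02 (without Ctrl 1 or LH 2) to 0.20 (without LH 3) in LH vs. Ctrl. In LH vs. NLH it was -0.16 without LH 2, -0.13 without LH 1, -0.10 without NLH 3, -0.07 without NLH 1 and -0.02 without NLH 4, and it turned to 0.08 without LH 3 and to 0.10 with sample weights. Without LH 3 and LH 4 the median was 0.32 against Ctrl and 0.17 against NLH, where all genes were at 0.19 and 0.13. In NLH vs. Ctrl 8 of the 10 members were higher in NLH, of which Flt1, Pdgfrb and Kdr had the largest values by named sums. With the unnamed transcripts added, the NLH mean over the Ctrl mean was 1.30 for Kdr, 1.25 for Vtn, 1.18 for Flt1 and 1.11 for Pdgfrb. The 8 endothelial members summed to 33.6 ± 1.97 FPKM in HC (SD, n = 4), 36.1 ± 2.98 in Ctrl, 36.5 ± 0.396 in NLH, with 41.0 ± 8.11 in LH, and the pericyte members to 6.61 ± 0.711, 6.20 ± 0.942, 7.75 ± 0.717 and 7.18 ± 1.77. The SD of the endothelial sum in LH was the widest of the groups, from 29.5 in LH 3 to 48.4 in LH 2. In RNA of whole tissue, a different number of vascular cells and a different amount of RNA per cell cannot be told apart, whether a level is higher or lower.

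The levels of the members were compared over the 16 mice to see whether they varied together. The highest correlations on the log2 scale were between Kdr and Abcb1a (Pearson's r = 0.67, permutation p = 0.0058, Spearman's rho = 0.65, p = 0.00853), Pecam1 and Tek (r = 0.63, permutation p = 0.00856, rho = 0.59, p = 0.0174), Flt1 and Kdr (r = 0.60, permutation p = 0.00948, rho = 0.72, p = 0.0023) and Flt1 and Abcb1a (r = 0.58, permutation p = 0.0144, rho = 0.63, p = 0.00958). Tek and Vtn followed with r = 0.53 (permutation p = 0.0358, rho = 0.44, p = 0.0954). The lowest was between Slco1a4 and Slc2a1 (r = -0.25, permutation p = 0.353, rho = -0.36, p = 0.166), and this value was -0.64 without Ctrl 1 and LH 2, the mice farthest from the median of Slco1a4, and 0.14 with the group means removed. Of 45 pairs, 5 had a permutation p under 0.05, or 11.1%, against 14.4% of all pairs of a member with another gene. With adjustment over the 18286 other genes none passed, and the smallest adjusted p was 0.112, for Kdr and Abcb1a.

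Without the 2 mice farthest from the median of the first gene, r was 0.52 for Kdr and Abcb1a, 0.45 for Pecam1 and Tek, 0.67 for Flt1 and Kdr, 0.48 for Flt1 and Abcb1a and 0.19 for Tek and Vtn, so that the last rested on NLH 2 and LH 4. With the group means removed it was 0.32, 0.62, 0.32, 0.53 and 0.50 in the same order. Kdr and Abcb1a, and Flt1 and Kdr, were therefore less alike within groups than over all mice, and this difference was not tested. With the unnamed transcripts added, r was 0.90 for Kdr and Abcb1a, 0.60 for Flt1 and Kdr and 0.40 for Flt1 and Abcb1a. Other pairs of Pdgfrb and Abcb1a moved further, and r was 0.75 in place of 0.41 for Kdr and Pdgfrb, 0.75 in place of 0.17 for Flt1 and Pdgfrb and 0.39 in place of -0.13 for Tek and Abcb1a.

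The median r of the 45 pairs was 0.21, and 37 of them were positive. Over all 54449830 pairs of the 10436 genes with a mean level of at least 1 FPKM the median was 0.27 and 75.2% were positive. The median of the members was lower here, but its jackknife SE, from leaving out single mice, was 0.137. With the unnamed transcripts added the median of the members was 0.29, so that no direction is drawn. Without LH 3 and LH 4 both medians were 0.29 and 0.26, and with group means removed 0.31 and 0.32. With median-ratio size factors, which remove a shift shared by all genes of a mouse, the median was 0.07 over the members and -0.001 over all pairs, and Kdr and Abcb1a (0.69), Flt1 and Kdr (0.68) and Flt1 and Abcb1a (0.63) were the highest pairs.

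**Figure D4:**
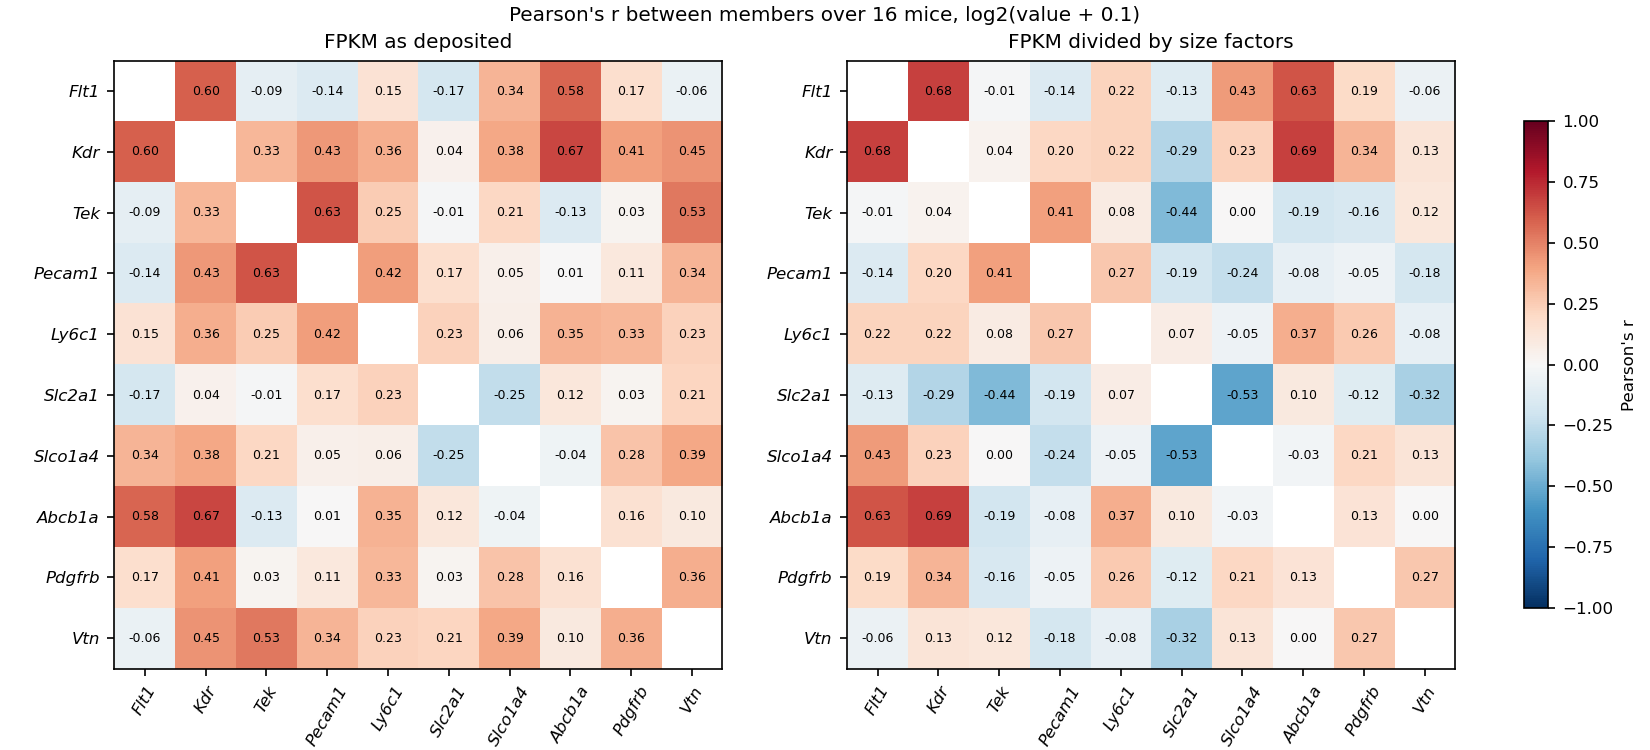
Pearson's r (color and number) between each pair of members over the 16 mice, for log2(FPKM + 0.1) as deposited (left) and after division by size factors (right). The 3 pairs among Flt1, Kdr and Abcb1a lie at 0.58 to 0.67 on the left and are the highest on the right, at 0.63 to 0.69, and Slco1a4 and Slc2a1 have the lowest value in both, -0.25 and -0.53.

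Among the 10 other genes most like the members, by the mean r with all 10 over the 16 mice among 10427 genes of at least 1 FPKM, were Hsd17b11 (mean r = 0.51), Ddx39b (0.50), Tfdp1 (0.49), Tigar (0.49), Sox9 (0.48), Slc25a18 (0.48), Btbd1 (0.48), Necab2 (0.48) and C530008M17Rik (0.48). None of these is on the lists of vascular genes used here, and Sox9 is on that of astrocytes. Of the members, Kdr had the highest mean r with the other 9, 0.41, and Slc2a1 the lowest, 0.04.

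Other genes of the vessel wall were taken as lists. Of 22 measured genes of endothelial junctions and identity, none passed the adjusted threshold by limma in any comparison. In LH vs. Ctrl Fli1 and Icam2 were higher and Esam and Tie1 lower at an unadjusted p under 0.05, where 7.03% of all genes were higher and 4.49% lower, and the list's median log2 difference was 0.04. In LH vs. NLH Icam2 and Ocln were higher and Esam, Podxl and Ly6a lower by the same measure, against 2.75% and 4.79% of all genes, and the list's median was -0.23 beside -0.06 over all genes. Among the LH mice Icam2 was highest in LH 3 and LH 4 (0.582 and 1.75 FPKM, against at most 0.371 in LH 1 and LH 2), and Esam (0.745 and 0.586, against 1.11 and 1.63) and Tie1 (0.338 and 0.164, against 0.385 and 0.479) were lowest there. Cdh5, the adhesion molecule of endothelial junctions, was at a mean of 0.811 FPKM, Ocln and Tjp1, parts of tight junctions, at 2.06 and 8.38. Cdh5 was at 0.714 ± 0.0585 FPKM in Ctrl, 0.877 ± 0.109 in NLH, with 0.931 ± 0.288 in LH.

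Of 13 other transport genes of the barrier, none passed the adjusted threshold, and in LH vs. Ctrl Tfrc, the transferrin receptor, was higher at an unadjusted p under 0.05 (log2 difference 0.39), as were 7.03% of all genes. Tfrc was at 16.4 FPKM in LH 3 and at 8.66 to 11.2 in the other LH mice, beside 8.39 to 9.03 in Ctrl. Mfsd2a, a lipid transporter, and Abcg2, an efflux pump, had means of 2.75 and 5.68 FPKM, and Mfsd2a was at 0.00916 in LH 4 and at 1.86 to 4.40 in the other mice. Of 10 other pericyte genes none passed, and Higd1b was lower in LH against both Ctrl and NLH at an unadjusted p under 0.05, as were 4.49% and 4.79% of all genes. Higd1b was at 0.999, 0.359, 0.0891 and 0 FPKM in the LH mice, the last 2 being LH 3 and LH 4, and LH 1 lay within the Ctrl range of 0.451 to 1.54. Rgs5, the highest of the pericyte list with a mean of 11.2 FPKM, ranged from 10.3 to 10.9 over the HC mice, from 9.65 to 11.2 over Ctrl, from 10.5 to 13.0 over NLH and from 10.4 to 13.3 over LH. Cspg4, a proteoglycan of pericytes, and Kcnj8, a potassium channel, were at means of 1.31 and 0.285.

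Among 15 ligands and coreceptors, Vegfa, the ligand of Flt1 and Kdr, was at 4.51 ± 1.91 FPKM in HC, 5.75 ± 0.533 in Ctrl, 6.63 ± 0.419 in NLH, with 4.80 ± 1.70 in LH. Vegfa was lowest in LH 3, at 2.28, while LH 1, LH 2 and LH 4 were at 5.44, 6.00 and 5.47. Vegfb, a ligand of Flt1, was at 5.29 ± 0.842 in Ctrl and 7.09 ± 0.627 in LH, with a log2 difference of 0.43 ± 0.13 (limma adjusted p = 0.229). Vegfc was at 0.251 ± 0.0477 in Ctrl and 0.78 ± 0.373 in NLH (limma adjusted p = 0.589). No gene of this list passed the adjusted threshold, and the same held for 11 genes of the basement membrane and 8 of activated endothelium. Col4a1, Col4a2 and Lama4, components of the vascular basement membrane, had means of 4.26, 2.67 and 0.661 FPKM, and Lama4 was lower in Ctrl vs. HC and higher in NLH vs. Ctrl at an unadjusted p under 0.05, as were 1.08% and 4.43% of all genes. Both comparisons use the same 4 Ctrl mice. Of the markers of activation, Icam1 and Vcam1 were at means of 0.257 and 3.59, and Selp was listed at 0 in 15 of 16 mice.

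Markers of other cells in the dissected tissue moved between mice beside these values. The 10 choroid plexus genes summed to 5.71 to 46.9 FPKM in HC, 25.8 to 67.9 in Ctrl, 5.74 to 79.5 in NLH and 4.35 to 118 in LH, and the 9 genes of fibroblasts and meninges to 14.3 to 23.7, 17.2 to 26.4, 17.3 to 27.6 and 9.87 to 37.5. The 4 red blood cell genes summed to 144 to 459 and the 7 smooth muscle genes to 2.60 to 5.69 over all mice. Leukocyte genes were near 0, with sums of 0.254 to 1.55 over 4 genes. In all groups the range of each list overlapped with that of Ctrl, none of their genes passed the adjusted threshold, and none of these lists had a gene at 0 in every mouse. LH 2, the highest mouse for Slco1a4, Ly6c1 and Vtn, also had the highest sums of choroid plexus, meningeal and red blood cell genes, and LH 4 the lowest of choroid plexus and meningeal genes. Over the 16 mice, as a description on the log2 scale, Vtn had r of 0.78 with the summed oligodendrocyte genes and 0.77 with the astrocyte genes, Pecam1 had 0.72 with those of fibroblasts and meninges, and Flt1 had 0.67 with the number of transcripts at 0. With the estimated depth r was -0.57 for Flt1 and -0.57 for Slco1a4, both higher in LH, where depth was lower than in Ctrl. The Flt1 values use its summed level, which was 10.6 FPKM in LH 4, mostly from the short transcripts described above. LH 4 also had the most transcripts at 0 and the lowest estimated depth. How far the r values of Flt1 rest on this mouse was not tested. The median r of the members with single genes was 0.36 for the 8 astrocyte genes and 0.23 for the 22 genes of endothelial junctions and identity. All these values share the same libraries and their depth, and the part of other cells in the results was not tested.

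The sums of 9 microglial genes (47.7 to 75.9 FPKM), 8 astrocyte genes (355 to 555), 7 neuronal genes (735 to 1032) and 7 oligodendrocyte genes (282 to 550) were likewise lowest in LH 4 and highest in LH 2.

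**Figure D5:**
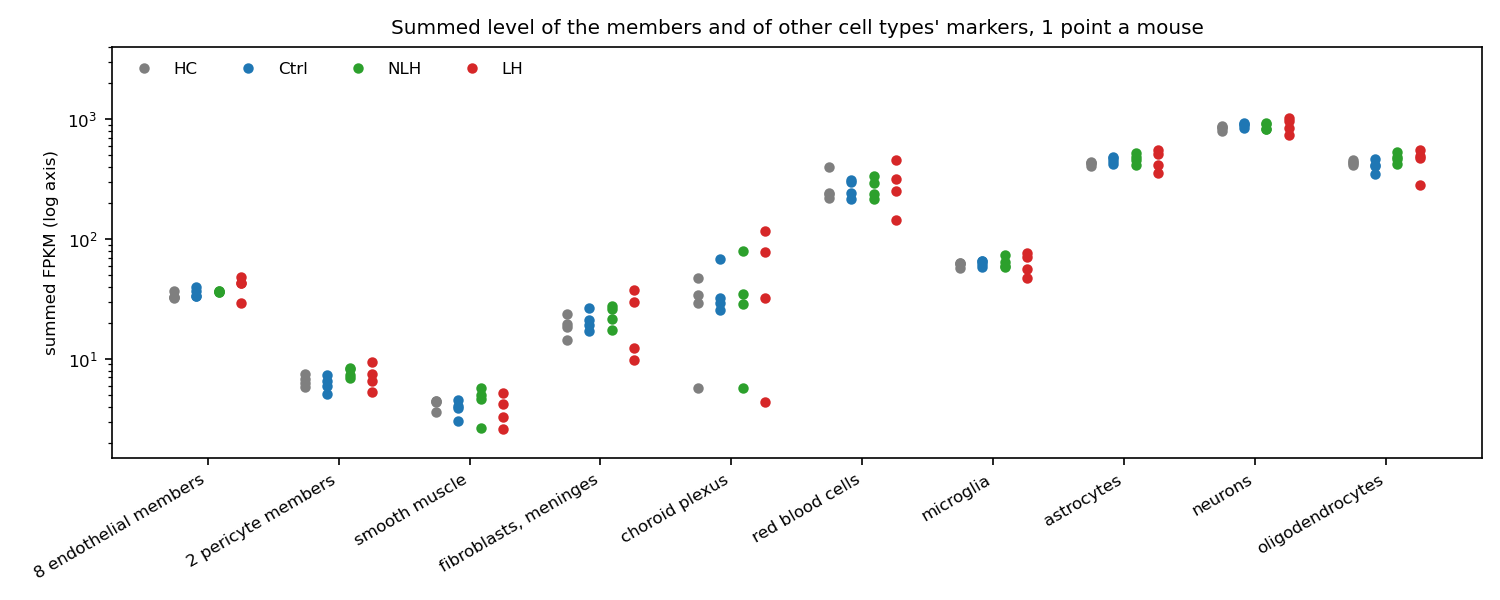
Summed FPKM (vertical log axis) of the endothelial and pericyte members and of marker lists of other cell types, with 1 point for each of the 16 mice, colored by group. The choroid plexus sum varies most, from 4.35 to 118, and the LH mice spread more widely than the other groups in most lists, while the endothelial members of the 4 NLH mice lie between 36.0 and 36.9.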

How the data were processed

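RNA-seq libraries of the hippocampus of 16 mice, 4 per group, were compared. The authors deposited FPKM values per transcript, already normalized for transcript length and library size. Per the labels' processing notes STAR 2.42a, StringTie 1.2.3 and Cufflinks were used, whereas the methods name HISAT2 as aligner, so the aligner is uncertain. The study reports a quality step that left the 80137 transcripts used here. The cutoff of this step, strand and the division of fragments between paralogs are not given in the sources used here. Counts were not used, and depth was estimated from the steps of low FPKM values at 1962 loci with an assumed fragment length of 200 bases. Intervals cover the spread of mice only.

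Named transcripts were summed per gene and tested as log2(FPKM + 0.1) with limma 3.58.1 (trend and robust, R 4.3.3) in all 16 mice, with Benjamini-Hochberg adjustment over 18287 genes or 80137 transcripts at a threshold of 0.05. No filter was applied. A fold change on this scale understates that of low genes. Correlations over the mice used 100000 two-sided random pairings per test (Python 3.11.15, scipy 1.17.1). The main limma fit of the genes, without its F test, and the permutation test of the correlations were tested on simulated data. The other fits were not.

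The members and gene lists were chosen with earlier results of these data known. Named were all members, the most abundant transcript of each, those of at least 20% of the gene, the first 3 measured genes of each list and the 10 genes most alike over the mice, of which 1 is not reported here. Other transcripts and list genes were named after their values were seen. Mice of the same number did not pair (median r of their residuals -0.023 over 24 pairs). Alternatives were other pseudocounts, a minimum mean of 1 FPKM, size factors, sample weights, single mice and LH 3 and LH 4 left out, a replicate block, fits of the compared groups only, the most abundant transcript and the methods' test on FPKM. The locus sum and the length-weighted sum were added after the data were seen. Promoters came from RefSeq (GRCm38.p6, 8 of 10 members matched) and transcripts from GENCODE vM21 (GRCm38). Genes of the lists that were not in the table were not analysed here.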

Additional observations from a re-analysis of the deposited data

Results flagged for a closer look

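In 1 of 40 combinations of member and group, 1 mouse lay apart from the other 3 by Dixon's test. This was Pecam1 in NLH 4, at 1.57 FPKM against 2.04 to 2.12 in the other NLH mice. Chance sets apart about 1 in 20 groups by this test.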

How the results depend on the processing

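Of 776 alternative values for single members, 764 kept their direction and side of the threshold, counting 48 turns of sign within 1 SE. Reversed were Pdgfrb in LH vs. NLH, at 0.0448 with the locus sum, and Pecam1 in LH vs. Ctrl, at 0.0913 without LH 3 and LH 4. The methods' test on FPKM, which is not adjusted, called 3 members in Ctrl vs. HC, 3 in NLH vs. Ctrl and 1 in LH vs. Ctrl, and 5, 3, 2 and 1 member transcripts in Ctrl vs. HC, NLH vs. Ctrl, LH vs. Ctrl and LH vs. NLH. In LH vs. Ctrl 1 member passed with sample weights and 1 without LH 3 and LH 4, and 0 to 1 with single mice left out. Among the 4 groups 2 members passed with sample weights and 3 without LH 3 and LH 4. The cause was not tested. The median difference of the members was 0.32 (LH vs. Ctrl) and 0.17 (LH vs. NLH) without LH 3 and LH 4, where all genes were at 0.19 and 0.13. The median r among the members was 0.0712 with size factors, and 0.126 to 0.289 with single mice left out. With the replicate number as a block the number of members past the threshold was 0 in every comparison, and Slco1a4 in LH vs. Ctrl had a limma adjusted p of 0.201. The numbers did not pair the mice. The estimated fragments in named transcripts were fewest for Tek, Pecam1 and Pdgfrb, with medians of 137, 145 and 150 per mouse. In the lowest mouse Pdgfrb had 34 and Pecam1 49. The 34 of Pdgfrb, in Ctrl 1, leaves out the unnamed transcript of its locus, which was at 1.26 FPKM there.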
